A study of Mus musculus with 12 samples.

Results

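A set of 10 epithelial cytokine, cytokine receptor and chemokine genes is described here in NU1 cells, a mouse urothelial line immortalised by serial passaging: Il24, Il20rb, Il22ra1, Il1a, Il1rn, Il18, Il33, Cxcl1, Cxcl5 and Ccl20. They are 10 of the 23337 gene symbols in the deposited count table. The set was chosen by the measured level of Il24, which was higher in quiescent Stag2 knockdown than in quiescent control cells, and holds related genes of the epithelial cytokine network, so that contrast is described without a test for all 10 genes. For Il24 itself, every contrast that contains quiescent libraries, of either hairpin, is a description, since both quiescent groups entered that comparison. The minimum count filter was passed by 8 of the 10, and Il1a and Ccl20 had too few reads to be tested.

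RNA was sequenced from 12 libraries in 4 groups of 3. Proliferating cells carried either the control hairpin (shNT) or a hairpin against Stag2 (sh4), and quiescent cells carried the same hairpins. Quiescent cells were grown to confluence, then given rosiglitazone at 1 µM, an agonist of the nuclear receptor PPAR gamma, and erlotinib at 0.5 µM, an inhibitor of the epidermal growth factor receptor kinase, and were labelled day 7. All libraries come from 1 cell line, the knockdown rests on 1 hairpin, and experiments 5, 7 and 9 each gave 1 library of every group. No label says that the experiments came from separate derivations of the line, so p-values measure the spread between these experiments. Confluence and both drugs were applied together, so their effects cannot be told apart.

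IL-24 is a secreted cytokine of the IL-10 and IL-20 family. It binds heterodimers of IL-20RB with either IL-20RA or IL-22RA1 and activates JAK kinases and STAT3. The IL-1 family holds activating ligands such as IL-1 alpha, IL-18 and IL-33, which epithelial cells can store and release on injury, and the antagonist IL-1RN, which occupies the IL-1 receptor without signalling. CXCL1 and CXCL5 attract neutrophils through CXCR2, and CCL20 attracts CCR6-bearing lymphocytes and dendritic cells. Transcription of several of these genes is known to be driven by NF-kappaB and AP-1.

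Levels are given as CPM, counts scaled to a common library total and corrected for library composition, and always in the order of experiments 5, 7 and 9. Fold changes are log2 values with their standard errors (SE), and adjusted p-values are from edgeR's quasi-likelihood test with Benjamini-Hochberg adjustment over all 12406 tested genes, called past 0.05. Library totals ran from 14524429 to 21987539 counts, so 3 counts, the limit that a count of 0 allows, correspond to 0.136 to 0.207 CPM. These limits cover counting error only. Stag2 stood at 113 to 145 CPM in the proliferating and 107 to 128 CPM in the quiescent control libraries, against 24.6 to 33.3 and 9.43 to 15.3 CPM in the knockdown libraries, so it matched the labels in all 12. As a share of control, knockdown libraries held 23.9, 17.1 and 21.8% of Stag2 while proliferating and 7.38, 12.1 and 10.9% in quiescence. Quiescence changed Stag2 by -1.19 in knockdown cells (adjusted p = 0.00208 by edgeR). The knockdown effect on Stag2 in quiescent minus that in proliferating cells was -1.05 (adjusted p = 0.9997 by edgeR). The epithelial genes Krt8, Krt18, Krt19, Epcam and Cdh1 were expressed in all libraries. Markers of the urothelial layers did not move together. Among basal genes, Trp63 had 0 counts in all 12 libraries, while Krt5 had group means of 0.842 to 4.62 CPM and Krt14 of 0.497 to 9.08 CPM. Among umbrella-cell genes, Krt20 had group means of 623 to 1537 CPM, while Upk3a had at most 1 count per library and Upk1a, Upk2 and Upk3b group means of 0.310 to 5.34 CPM. Of 16 leukocyte markers, 7 were at 0 in every library, among them Cd3e and Tyrobp, and summed fibroblast and endothelial markers reached at most 2.61 and 0.762 CPM.

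Il24 (chr1:130882074-130887454, minus strand, mm10, a protein-coding gene in GENCODE M21) was abundant in proliferating cells and fell in quiescence. Proliferating control libraries held 25.2, 44.8 and 28.0 CPM, and proliferating knockdown libraries 25.5, 52.0 and 41.8 CPM. Quiescent control libraries held 1.86, 2.45 and 1.13 CPM, which were only 27, 40 and 19 counts. Quiescent knockdown libraries held 9.93, 6.62 and 13.0 CPM. Every quiescent library lay below every proliferating one, and every quiescent knockdown library lay above every quiescent control library. The 2 proliferating groups overlapped.

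In control cells, quiescence lowered Il24 by 4.17 on the log2 scale (SE 0.40), the drop being present in 3 of 3 experiments. The value is given as a description, since the quiescent control libraries entered the choice of the set. Ranked from the most negative change, Il24 stood at 109 of 12406 genes. Leaving out 1 control library at a time gave changes of -4.44 to -3.87. In proliferating cells the knockdown difference was 0.28 (SE 0.34, adjusted p = 0.9998 by edgeR).

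In quiescent cells, the difference that chose the set, Il24 was 2.44 higher in the knockdown (SE 0.39). Within experiments 5, 7 and 9 the difference was 2.34, 1.39 and 3.39 on the log2 scale with a prior count of 2, and the plain CPM ratios were 5.33, 2.70 and 11.5. Knockdown cells still had less Il24 in quiescence than while proliferating, by -2.01 (SE 0.35). Expressed as the share of the proliferating level kept in quiescence, control cells retained 7.38, 5.46 and 4.05% and knockdown cells 38.9, 12.7 and 31.1%. The quiescent control libraries enter both the quiescence contrast in control cells and the knockdown contrast in quiescent cells, so those 2 values are not independent.

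**Figure D1:**
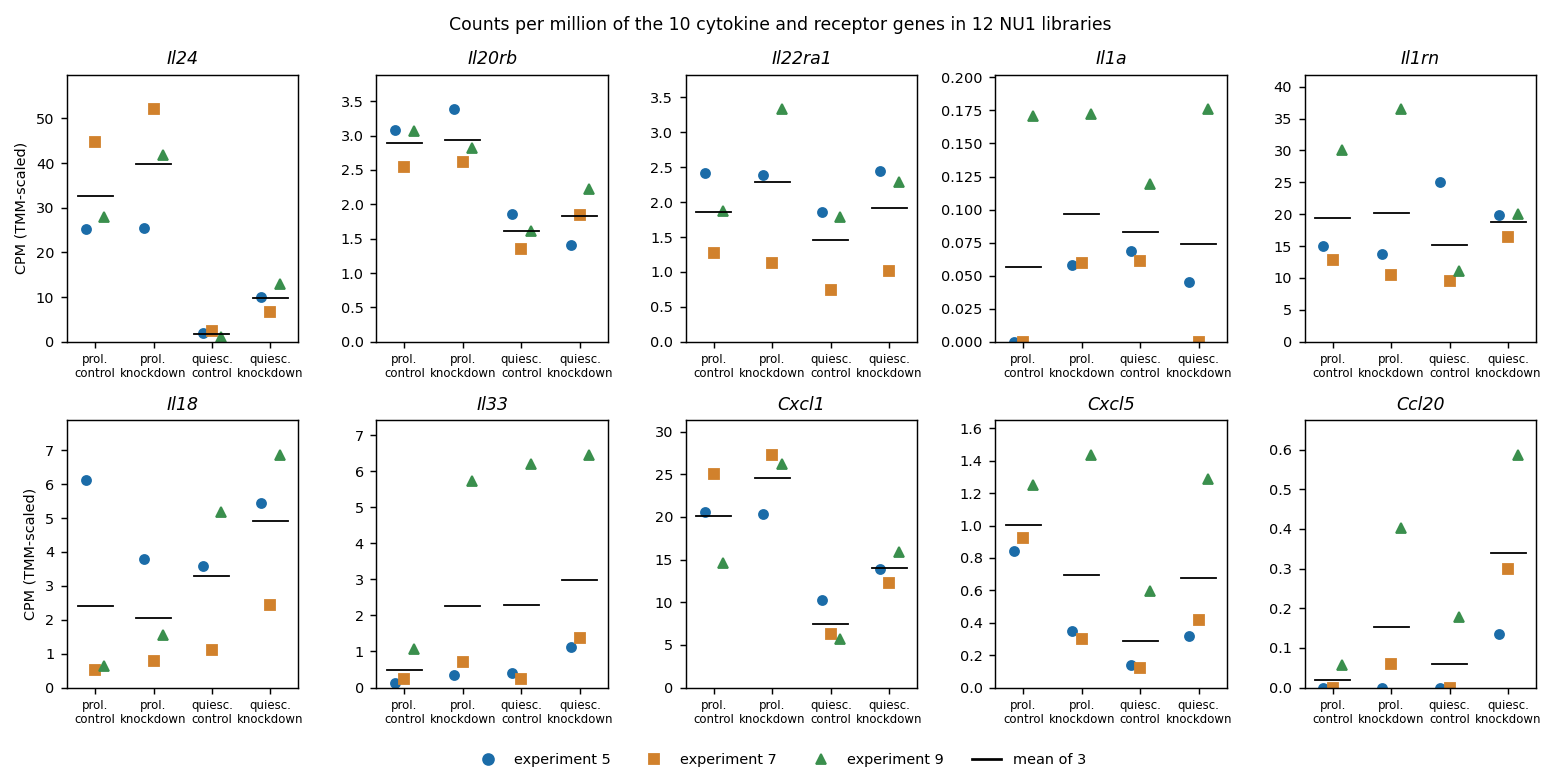
Levels of the 10 genes in each of the 12 libraries, in CPM on linear axes that start at 0, with 1 point per library and a bar at the mean of 3. Il24 falls in quiescence most in control libraries and less in knockdown libraries, while Il33 is spread mainly by experiment. Il18 differs between experiments and also within them, from 0.625 to 6.86 CPM in experiment 9.

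The receptor subunits differed in level. Il20rb (chr9:100457719-100486788), the shared subunit for IL-24, was at 3.09, 2.54 and 3.07 CPM in proliferating control libraries and 1.86, 1.35 and 1.61 CPM in quiescent control libraries. Knockdown libraries held 3.38, 2.62 and 2.81 CPM while proliferating and 1.41, 1.85 and 2.23 CPM in quiescence. All quiescent libraries lay below all proliferating ones. The change in control cells, -0.85 (SE 0.29), missed the threshold (adjusted p = 0.0588 by edgeR) and passed with experiment as a block in the replicate-blocked fit (adjusted p = 0.0262). In knockdown cells it was -0.69 (adjusted p = 0.118 by edgeR, and 0.0576 with the block).

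Il22ra1 (chr4:135728172-135752140), the subunit that joins Il20rb, did not follow the groups. It was at 2.41, 1.27 and 1.88 CPM in proliferating control, 2.39, 1.13 and 3.33 in proliferating knockdown, 1.86, 0.734 and 1.79 in quiescent control and 2.45, 1.01 and 2.29 in quiescent knockdown libraries. The lowest value in each of the 4 groups came from experiment 7. Quiescence changed it by -0.34 in control cells (SE 0.52, adjusted p = 0.679 by edgeR). Il20ra, the alternative partner of Il20rb, had 0 counts in all 12 libraries, while Il10rb stood at 48.1 to 111 CPM. Il20ra and Il10rb were picked as binding partners after their values were seen.

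Il1a (chr2:129299610-129309972), an alarmin, had 16 counts in all 12 libraries together, with no library above 3 and 3 libraries at 0. Il1rn (chr2:24336853-24351494), the receptor antagonist, was by contrast among the more abundant members. It stood at 15.1, 12.9 and 30.1 CPM in proliferating control and 25.0, 9.54 and 11.0 CPM in quiescent control libraries. Proliferating knockdown libraries held 13.8, 10.4 and 36.4 CPM and quiescent knockdown libraries 19.9, 16.5 and 20.1 CPM. The groups overlapped throughout, and quiescence in control cells gave -0.35 (SE 0.50, adjusted p = 0.657 by edgeR), with -0.43 and -1.44 in experiments 7 and 9 but 0.72 in experiment 5.

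Il18 (chr9:50554827-50581840), a cytokine made as an inactive precursor, stood at 6.11, 0.519 and 0.625 CPM in proliferating control and 3.79, 0.774 and 1.55 CPM in proliferating knockdown libraries. In quiescence it was at 3.59, 1.10 and 5.19 CPM in control and 5.44, 2.45 and 6.86 CPM in knockdown libraries. Experiment 5 alone held a high level while proliferating, so the groups overlapped. Quiescence gave 0.44 in control cells (SE 0.91, adjusted p = 0.772) and 1.27 in knockdown cells (SE 0.92, adjusted p = 0.367), both by edgeR. With the block the latter was 1.47 (adjusted p = 0.0808).

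Il33 (chr19:29925114-29960718), a nuclear alarmin read by the ST2 receptor, was dominated by experiment. Proliferating control libraries held 0.112, 0.231 and 1.08 CPM, and proliferating knockdown libraries 0.350, 0.715 and 5.74 CPM. Quiescent control libraries held 0.414, 0.245 and 6.20 CPM, and quiescent knockdown libraries 1.13, 1.37 and 6.45 CPM. The mean over the 4 groups was 0.502, 0.641 and 4.87 CPM in experiments 5, 7 and 9. The knockdown library was higher than its control in every experiment in both states, the quiescent values being a description. In quiescent cells of experiment 9 the ratio was only 1.04. Counts ran from 2 to 19 in proliferating control and 6 to 100 in proliferating knockdown libraries. In quiescence they ran from 4 to 104 in control and 23 to 110 in knockdown libraries. The knockdown difference while proliferating was 2.24 (SE 1.41, adjusted p = 0.9998 by edgeR), with 1.03, 1.26 and 2.29 within experiments. It ran from 0.15 to 3.67 when 1 library was left out, the lowest without the proliferating knockdown library of experiment 9. With the block the knockdown difference while proliferating was 2.07 (SE 0.50, unadjusted p = 0.00189 and adjusted p = 0.825 by edgeR). Quiescence in control cells gave 2.26 (SE 1.41, adjusted p = 0.280). With the block, which takes the experiments' levels out, it was 1.92 (adjusted p = 0.0147 by edgeR), with within-experiment differences of 1.22, 0.06 and 2.40.

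Of the 8 tested members, 4 differed between experiments by edgeR's test of the experiment terms, a test chosen after the data were seen: Il33 (adjusted p = 0.000452), Il22ra1 (0.0138), Cxcl5 (0.0197) and Il18 (0.0371). The share of all tested genes past the threshold in that test was 21.1%. Il24 was not past it (adjusted p = 0.363), nor were Cxcl1, Il1rn and Il20rb.

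Cxcl1 (chr5:90891241-90893115), a neutrophil attractant, was next to Il24 in level per length in proliferating cells and fell in quiescence. Proliferating control libraries held 20.5, 25.1 and 14.5 CPM and proliferating knockdown libraries 20.3, 27.2 and 26.2 CPM. Quiescent control libraries held 10.3, 6.24 and 5.72 CPM and quiescent knockdown libraries 13.9, 12.3 and 15.9 CPM. All quiescent control libraries lay below all proliferating control libraries and below all quiescent knockdown libraries. In control cells quiescence lowered Cxcl1 by 1.44 on the log2 scale (SE 0.26, adjusted p = 0.00348 by edgeR), and leaving out 1 library at a time gave adjusted p from 0.00299 to 0.0175. In knockdown cells the fall was -0.81 (SE 0.25, adjusted p = 0.0484 by edgeR). That call rested on all libraries: leaving out 1 at a time put the adjusted p between 0.0463 and 0.144, above the threshold in 5 of 6 cases. The only omission that kept it was that of the proliferating knockdown library of experiment 5. The knockdown difference in quiescent cells was 0.92 (SE 0.26), given as a description. Control cells kept 50.1, 24.9 and 39.4% of their proliferating Cxcl1 level, and knockdown cells 68.6, 45.1 and 60.9%.

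The 250 bases before the Cxcl1 transcription start (RefSeq, GRCm38.p6) are shown because 2 overlapping matches to the NF-kappaB consensus, starting at -71 and -70, form a single stretch, in capitals. The promoters of Ccl20, with an NF-kappaB match at -80, and of Il1rn, with an AP-1 match (TGANTCA) at -141, are shown beside it as members with 1 match each. Cxcl1 and Ccl20 held no AP-1 match, and Il1rn held no NF-kappaB match. The Il1rn match lies at the first of 3 start sites in the table, and the other 2 held no match. Matches were sought on both strands in 300 bases per promoter.
Cxcl1 chr5:90890995-90891244 + strand: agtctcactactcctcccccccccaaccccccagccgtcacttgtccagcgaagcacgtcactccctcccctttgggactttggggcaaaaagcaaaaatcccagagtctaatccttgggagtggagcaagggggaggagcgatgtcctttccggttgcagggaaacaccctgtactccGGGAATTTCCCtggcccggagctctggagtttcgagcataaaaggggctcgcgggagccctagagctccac
Ccl20 chr1:83116516-83116765 + strand: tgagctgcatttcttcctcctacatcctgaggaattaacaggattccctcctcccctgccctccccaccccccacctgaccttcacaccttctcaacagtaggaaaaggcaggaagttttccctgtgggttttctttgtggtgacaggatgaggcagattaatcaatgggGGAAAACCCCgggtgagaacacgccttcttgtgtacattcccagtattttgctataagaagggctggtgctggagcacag
Il1rn chr2:24336610-24336859 + strand: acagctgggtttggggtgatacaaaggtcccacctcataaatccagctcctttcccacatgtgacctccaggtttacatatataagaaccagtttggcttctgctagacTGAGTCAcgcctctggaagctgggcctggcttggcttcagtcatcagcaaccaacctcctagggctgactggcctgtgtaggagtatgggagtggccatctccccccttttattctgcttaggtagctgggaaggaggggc
The NF-kappaB consensus was matched in 8.46% and TGANTCA in 7.81% of 32851 promoters of that length. TTCNNNGAA (STAT) was in 8.3% and TTTGAA (the CHR element of DREAM-bound genes) in 17.9%. Il22ra1 held an AP-1 match at -222 and an NF-kappaB match at -156, and Il1a an AP-1 match at -12. No match to the 4 motifs was found for Il20rb, Il18 or Il33.

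Cxcl5 (chr5:90759360-90761624), a further CXCR2 ligand, was scarce, at 2 to 25 counts per library. Proliferating control libraries held 0.842, 0.924 and 1.25 CPM and quiescent control libraries 0.138, 0.122 and 0.596 CPM. Proliferating knockdown libraries held 0.350, 0.298 and 1.43 CPM and quiescent knockdown libraries 0.317, 0.417 and 1.29 CPM. The proliferating and quiescent control groups did not overlap. The change with quiescence in control cells was -1.77 (SE 0.82, adjusted p = 0.148 by edgeR), and -1.99 with the block (adjusted p = 0.00989). In knockdown cells it was -0.06 (adjusted p = 0.968 by edgeR). The knockdown libraries kept 90.7, 140 and 89.9% of the proliferating level, against 16.4, 13.3 and 47.7% in control cells. Ccl20 (chr1:83116766-83119167), the CCR6 ligand, had 30 counts in all 12 libraries together, with 3, 5 and 10 in the quiescent knockdown libraries and 0 in 5 libraries. Cxcr2 stood at 0.469 to 1.76 CPM, and Ccr6 had 0 counts in every library.

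**Figure D2:**
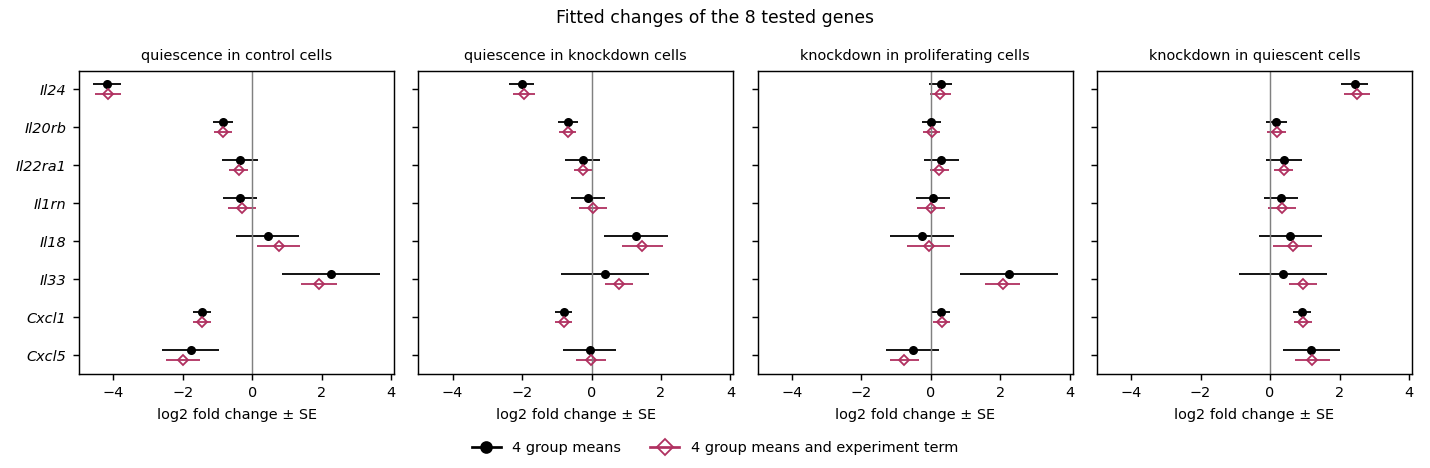
Log2 fold changes with SE (bars) for the 8 tested genes in 4 contrasts, in the fit of 4 group means and in the fit with experiment as a block. Il24 and Cxcl1 lie below 0 in both quiescence contrasts, and the SE of Il33 and Cxcl5 is smaller with the block.

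Read over the members, quiescence in control cells lowered 2 of 8, Il24 (as a description) and Cxcl1, and raised none. Over all tested genes 11.7% were lower and 8.33% higher. With experiment as a block the numbers were 4 lower (with Il20rb and Cxcl5) and 1 higher (Il33), against 18.5 and 16.8%. DESeq2 called 3 lower, adding Il20rb. Il24 is a description in all of these counts. In knockdown cells, where Il24 is a description, quiescence lowered Cxcl1 and none other of the remaining 7 members in both fits and by DESeq2, where 10.8% of all tested genes were lower (17.2% with the block), and raised none, against 7.59%. The median change of the 8 was -0.60 in control and -0.18 in knockdown cells, with medians over all tested genes of 0.0047 and 0.0045. In quiescence, lower groups that did not overlap were found for 4 of 8 in control and 3 of 8 in knockdown cells. Il24 is a description in both, and over all tested genes the shares were 18.5% and 19.1%. Genes called in either direction with the block made up 35.3% of all tested genes in control and 33.0% in knockdown cells.

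Knockdown in proliferating cells changed 0 of 8 members by edgeR's test, against 0.0242% of all tested genes. An unadjusted p under 0.05 was found for 0 of 8, while 1 of 8, Il33, had one with the block, and DESeq2 called 0. Groups did not overlap for 0 of 8, against 2.66% of all tested genes higher and 2.65% lower. For knockdown in quiescent cells, the contrast that chose the set, no member is tested. Over all tested genes, those past the threshold made up 0.153% higher and 0.282% lower, 0.435% in all, and with the block 1.59% higher and 1.96% lower, 3.55% in all. As a description, groups did not overlap for 2 members, Il24 and Cxcl1, both higher, where 10.2% of all tested genes were higher and 8.85% lower. The interaction, the knockdown effect in quiescent minus that in proliferating cells, called 0 of the members and 0 of all tested genes by edgeR. Among all genes 219 had an unadjusted p under 0.05, and DESeq2 called 6, none of them a member. For Il24, not counted as a test, it was 2.15 (SE 0.51), and for Cxcl5 it was 1.71 (SE 1.12, adjusted p = 0.9997).

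To compare genes, levels were divided by the length of each gene's exons merged over its annotated transcripts. That length can exceed any 1 transcript, which lowers the value. On this scale Il24 held 23.6 CPM per kilobase in proliferating control cells, above Cxcl1 at 10.7, Il1rn at 3.50 and Il18 at 2.35. Il24 and Cxcl1 did not overlap between libraries there, nor did Cxcl1 and Il1rn, while Il1rn and Il18 did. In quiescent control cells the order was Cxcl1 at 3.96, Il18 at 3.19, Il1rn at 2.74 and Il24 at 1.31, and each neighbouring pair in that order overlapped. In quiescent knockdown cells Cxcl1 stood at 7.49 and Il24 at 7.11 CPM per kilobase, and their ranges over the 3 libraries overlapped.

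**Figure D3:**
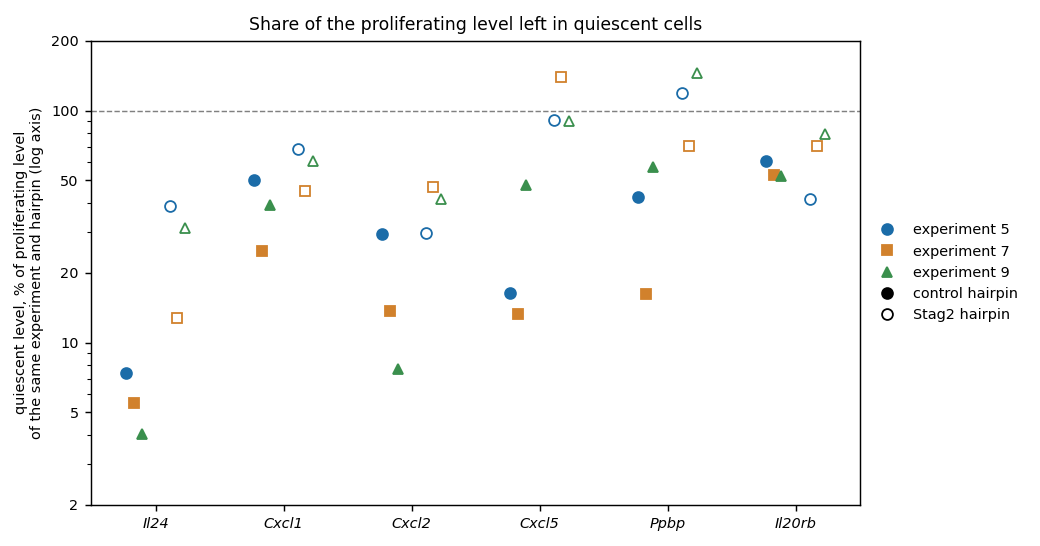
Share of the proliferating level kept in quiescence, in percent on a log axis, for Il24, Cxcl1, Cxcl2, Cxcl5, Ppbp and Il20rb, with filled symbols for control and open symbols for knockdown cells, 1 per experiment. Il24 was kept at 4.05 to 7.38% in control and 12.7 to 38.9% in knockdown cells. The other tested members, Il22ra1, Il1rn, Il18 and Il33, are not drawn. Il22ra1 was kept at 57.8 to 95.4% in control and 68.7 to 102% in knockdown cells, and Il1rn at 36.6 to 166% and 55.2 to 158%. Il18 stood at 58.7 to 830% in control and 144 to 442% in knockdown cells, and Il33 at 106 to 574% and 112 to 324%.

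The other CXC chemokines of the same chromosome 5 cluster gave nearby measures. The cluster runs from Cxcl5 to Cxcl2 over chr5:90759298-90905938 (RefSeq gene table), and reads of such related genes can be split between them in ways unknown here. Ppbp, another CXCR2 ligand, was at 113, 106 and 56.8 CPM in proliferating control and 48.0, 17.1 and 32.4 CPM in quiescent control libraries. It stood at 111, 106 and 81.3 CPM in proliferating knockdown and 132, 74.8 and 118 CPM in quiescent knockdown libraries. Quiescence lowered it by 1.50 in control cells (adjusted p = 0.0152 by edgeR) and not detectably in knockdown cells (0.13, adjusted p = 0.836). Without the proliferating control library of experiment 7 the first value missed the threshold (adjusted p = 0.0541 by edgeR). The knockdown difference in quiescent cells was 1.74 (SE 0.37, adjusted p = 0.0715 by edgeR), and 1.78 with the block (adjusted p = 0.0145). The interaction for Ppbp was 1.63 and did not pass the threshold (adjusted p = 0.9997 by edgeR, and 0.738 with the block).

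Cxcl2 fell in both genotypes, by 2.70 in control cells (adjusted p = 0.00189 by edgeR) and by 1.40 in knockdown cells (adjusted p = 0.0363). The latter call was lost whichever library was left out, with adjusted p from 0.0544 to 0.119. Cxcl3 fell by 3.82 in control cells (adjusted p = 0.0104 by edgeR) on 0, 1 and 1 counts in the quiescent libraries. Cxcl16, a membrane-bound chemokine, rose by 0.69 in control (adjusted p = 0.0153) and by 0.57 in knockdown cells (adjusted p = 0.0362). Of 13 listed CXC genes, 6 were tested, with 1 higher and 3 lower in control cells and 1 higher and 1 lower in knockdown cells. Over all tested genes the shares were 8.33 and 11.7% in control and 7.59 and 10.8% in knockdown cells.

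Across the 9 pathway lists, 77 of 140 genes were tested. None was past the threshold for knockdown in proliferating cells (2 at an unadjusted p under 0.05, 0 by DESeq2), against 0.0242% of all tested genes. In quiescent cells edgeR called none for knockdown, against 0.435% of all tested genes. Of the 77, 13 had an unadjusted p under 0.05 and DESeq2 called 3, where 1489 and 390 of all 12406 did so. With the block edgeR called 4, 3.90% of the 77 higher and 1.30% lower, against 1.59 and 1.96% of all tested genes. Pim1 was lower (-1.28, adjusted p = 0.00884 with the block). Il1f6, Irak2 and Ppbp were higher (3.25, 0.59 and 1.78, with adjusted p = 0.0447, 0.0164 and 0.0145). Il1f6 had only 4, 0 and 4 counts in the quiescent control libraries. In control cells quiescence raised 8 and lowered 11 of the 77, or 10.4 and 14.3%, near the 8.33 and 11.7% over all tested genes. In knockdown cells it raised 6 and lowered 6, or 7.79% each, where all tested genes gave 7.59 and 10.8%. With the block the counts were 18 higher and 15 lower in control cells, against 16.8 and 18.5% of all tested genes. In knockdown cells they were 21 and 9, against 15.9 and 17.2%. When each library was left out in turn, 9 of the 19 calls in control cells and 6 of the 12 in knockdown cells passed in every fit. Those were Il28ra, Socs3, Il1r1, Sigirr, Cxcl2, Cxcl3, Cxcr7, Csf3 and Tnfaip2 in control cells, and Socs3, Pim1, Sigirr, Irak2, Cxcr7 and Csf3 in knockdown cells. The other calls missed the threshold in at least 1 such fit. Of the 6 listed IL-10 and IL-20 family ligands other than Il24, 0 passed the filter.

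Of 18 listed IL-20 family and related cytokine receptors and JAK-STAT3 signalling genes, 15 were tested, with 2 higher and 3 lower in control cells, where all tested genes gave 8.33 and 11.7%. Il28ra and Il6ra, 2 of these 5, are cytokine receptors, and the others were Socs3, Pim1 and Cish. Socs3, a STAT3-induced inhibitor, fell by 1.38 in control cells (adjusted p = 0.00125) and by 1.31 in knockdown cells (adjusted p = 0.00207), both by edgeR. Pim1, a STAT-induced kinase, fell by 0.89 (adjusted p = 0.0350) and by 1.65 (adjusted p = 0.00235). Ifnlr1, listed as Il28ra, rose by 1.07 (adjusted p = 0.00472) and by 0.76 (adjusted p = 0.0263).

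Among IL-1 receptors and their regulators, 15 of 20 were tested. Il1r1, the receptor bound by IL-1 alpha and blocked by IL-1RN, rose by 1.64 in control (adjusted p = 0.00266 by edgeR) and by 1.05 in knockdown cells (adjusted p = 0.0255). Sigirr, an inhibitory receptor, fell by 0.95 (adjusted p = 0.00175) and by 0.96 (adjusted p = 0.00195). Among 18 tested NF-kappaB genes, Rela, Relb and Birc3 rose in control cells (0.42, 0.57 and 1.09, with adjusted p = 0.0148, 0.0464 and 0.0380 by edgeR). Tnfaip2 fell by 1.85 (adjusted p = 0.00945). Over all tested genes 8.33% were higher and 11.7% lower. Of these calls, only that of Tnfaip2 passed in every fit with 1 library left out. In knockdown cells edgeR called none of the 18, where all tested genes gave 7.59% higher and 10.8% lower. With the block it called 6 higher and 1 lower in knockdown cells, against 15.9 and 17.2% of all tested genes. In control cells the block gave 5 higher and 1 lower, against 16.8 and 18.5%. Whether the genotypes differed was tested only by the interaction, which called none. Ackr3 (listed as Cxcr7), a scavenger of CXCL12, fell by 3.37 and by 2.65 (adjusted p = 0.00216 and 0.00715). The chemokine Ccl28 rose by 1.79 in knockdown cells (adjusted p = 0.0191 by edgeR). In control cells its change was 1.17 (adjusted p = 0.0905 by edgeR), and 1.19 with the block (adjusted p = 0.0106).

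The levels of other cell types' markers moved with state as well. Summed leukocyte markers, mostly Csf1r and Cd14, were at 45.3 to 94.7 CPM in proliferating control, 91.8 to 97.7 in proliferating knockdown, 109 to 178 in quiescent control and 171 to 295 CPM in quiescent knockdown libraries. Ptprc, the pan-leukocyte gene, had at most 9 counts per library, and Emr1 had 0. The part of these markers in the results above was not tested. In bulk RNA, a change in the number of cells of a type and a change in RNA per cell cannot be told apart.

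**Figure D4:**
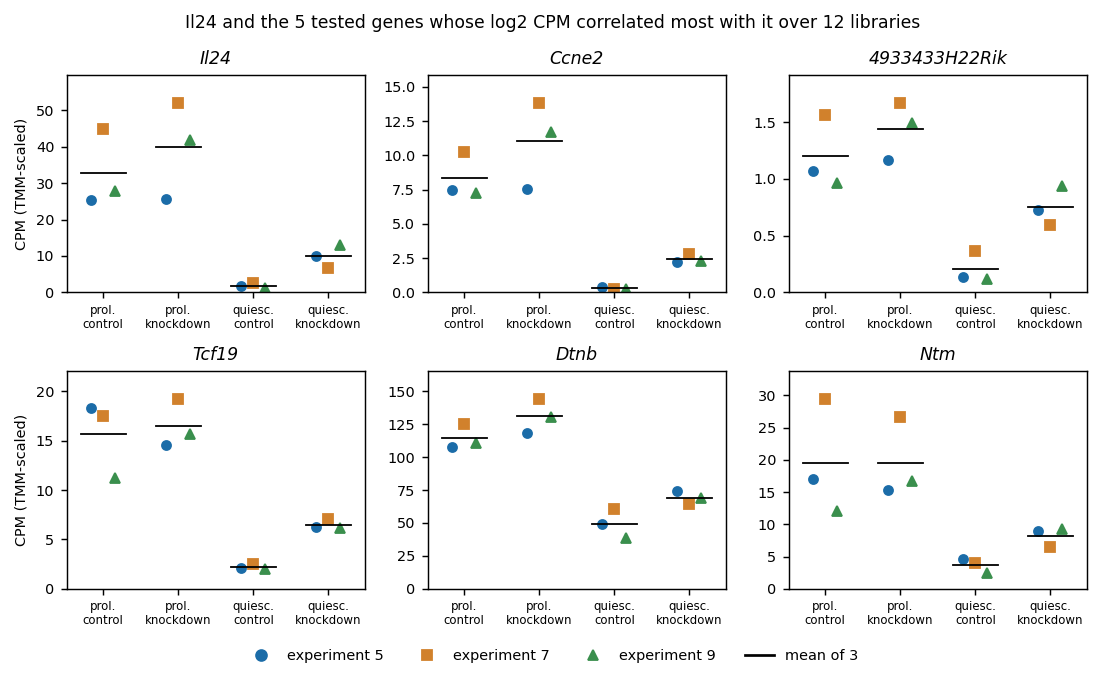
CPM of Il24 and of the 5 genes with the most similar pattern, on linear axes, with 1 point per library and a bar at the mean of 3. All 6 are lowest in the quiescent control libraries.

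The 5 tested genes with the pattern most like Il24 over the 12 libraries, by Pearson r of log2 CPM, were Ccne2 (0.980), 4933433H22Rik (0.977), Tcf19 (0.973), Dtnb (0.972) and Ntm (0.970). Ccne2, which encodes cyclin E2 of the G1/S transition, was at 8.32 ± 1.70 and 11.0 ± 3.21 CPM in proliferating control and knockdown cells (SD, n = 3). In quiescence it was at 0.299 ± 0.0996 and 2.44 ± 0.319 CPM. The 12 libraries share 4 groups, so these r mostly state the group pattern, and no p is given. Ranking by Spearman rho gave 2 of the 5. Cxcl1 had r = 0.945 and ranked 19 among tested genes, Il24 included, and Il20rb had 0.784.

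Of the genes within 100 kb of Il24 on chromosome 1, several had almost no reads. Il20 had 1 count in all 12 libraries, and Il19 and Faim3 (Fcmr) had 0 or 1 per library. Pigr, the polymeric immunoglobulin receptor that moves antibodies across epithelia, lies 29825 bases away and was tested. It stood at 1.74, 0.981 and 0.796 CPM in proliferating control, 2.21, 1.01 and 0.746 in proliferating knockdown, 4.21, 0.673 and 4.11 in quiescent control and 14.8, 2.33 and 33.4 CPM in quiescent knockdown libraries. Quiescence in knockdown cells raised Pigr by 3.66 (adjusted p = 0.0180 by edgeR), the opposite direction to Il24. That call was lost without the proliferating knockdown library of experiment 7 or 9 or the quiescent knockdown library of experiment 9, with adjusted p up to 0.0784. In control cells the change was 1.35 (adjusted p = 0.301 by edgeR). The knockdown difference of Pigr in quiescent cells was 2.49, the same direction as Il24. It did not pass the threshold (adjusted p = 0.262 by edgeR, and 0.0640 with the block).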

How the data were processed

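Polyadenylated RNA of 12 libraries was sequenced. The deposited table holds the authors' raw counts, whole numbers per gene symbol with no normalization. The submitters' processing notes name Bowtie, TopHat, HTSeq, DESeq2 and mm10, with no versions or roles. The annotation, and whether counting used strand, are not given in the sources used here, so overlapping, antisense and near-identical genes are uncertain.

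Counts were analysed with edgeR 4.0.16 in R 4.3.3: filterByExpr with a minimum count of 10 kept 12406 of 23337 genes, TMM scaling, 4 group means over 12 libraries, glmQLFit and glmQLFTest. P-values were adjusted over all tested genes. Log2 CPM used a prior count of 2. DESeq2 1.42.0, other scaling, filters, libraries of 1 contrast only, and leaving out each library were alternatives. The procedure was also run on simulated counts with the same spread for every gene and no difference between experiments. These data do differ between experiments, so that run cannot show how the fit handles such differences. Replicates differed by far more than sampling noise (chi-square per degree of freedom at least 36.6).

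The experiment number pairs libraries: the labels tie it to a batch. Same-numbered libraries of different groups deviated together (mean r 0.526, 0.225 to 0.789 over 18 pairs, against -0.259 over 36 pairs of different numbers). The fit with experiment as a block is given beside a member's result where it changed the call, and beside some but not all of the list results.

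Members and lists were chosen with earlier results of these data known. Named were the 10 members, up to 3 genes each way per list and contrast among those past 0.05 (not all are printed), the 5 genes most like Il24, Stag2, and binding partners and neighbours chosen after their values were seen. Lists covered the IL-10/IL-20, JAK-STAT3, IL-1, chemokine, cytokine and NF-kappaB genes, and urothelial, leukocyte, fibroblast and endothelial markers. Gene lengths came from GENCODE M21, and promoters and neighbours from RefSeq GRCm38.p6. No promoter is printed for Il24 or Cxcl5.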

Additional observations from a re-analysis of the deposited data

Results flagged for a closer look

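Cxcl3, a CXC chemokine gene of the cluster that holds Cxcl1, is given here because its knockdown difference went down in every experiment while proliferating and up in every experiment in quiescence. Within experiments 5, 7 and 9 the log2 differences were -0.69, -1.07 and -0.07 in proliferating cells and 0.84, 1.00 and 1.41 in quiescent cells, and the mean difference between the states was 1.70. The counts were low, at 8, 13 and 15 in proliferating control, 4, 5 and 14 in proliferating knockdown, 0, 1 and 1 in quiescent control and 2, 4 and 6 in quiescent knockdown libraries. The interaction in edgeR's fit was 2.83 (SE 1.13, adjusted p = 0.9997), which did not pass the threshold.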

How the results depend on the processing

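With experiment as a block, the numbers of genes past the threshold were 440 for knockdown in quiescent cells, 4374 for quiescence in control cells and 4096 in knockdown cells, against 54, 2481 and 2279; apart from the calls named above for Il20rb, Il33 and Cxcl5 the block changed no call of a member. DESeq2 gave 12 genes for knockdown in proliferating cells, 390 in quiescent cells and 6 for the interaction, against 3, 54 and 0. Fitting only the libraries of a contrast gave 1 gene for knockdown in proliferating cells and 1582 for quiescence in control cells. Leaving out 1 library at a time gave 1 to 2 genes for knockdown in proliferating cells, 5 to 60 in quiescent cells, 1394 to 3078 for quiescence in control and 1186 to 2029 in knockdown cells. Cxcl1 in quiescent knockdown cells also missed the threshold with median-of-ratios scaling (adjusted p = 0.0506) and with no filter (adjusted p = 0.0548), both by edgeR.

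The signs of the following changes, none past the threshold without the block, turned in at least 1 fit. Il1rn for quiescence in knockdown cells turned to 0.0447 with the block. With 1 library left out, knockdown in proliferating cells ran from -0.0942 to 0.0938 for Il20rb, -0.0805 to 0.62 for Il22ra1, -0.69 to 0.53 for Il1rn and -1.06 to 1.82 for Il18. Knockdown in quiescent cells ran from -0.87 to 3.15 for Il33. Quiescence in control cells ran from -0.90 to 0.11 for Il1rn, -0.0527 to 2.51 for Il18 and -0.53 to 3.69 for Il33. Quiescence in knockdown cells ran from -0.57 to 0.13 for Il22ra1, -0.42 to 0.64 for Il1rn, -0.86 to 2.47 for Il33 and -0.92 to 1.03 for Cxcl5. The interaction ran from -0.0029 to 0.32 for Il20rb, -0.23 to 0.47 for Il22ra1, -0.22 to 0.99 for Il1rn, -1.24 to 1.63 for Il18 and -3.31 to 0.91 for Il33. The cause was not tested. Il1a and Ccl20, at 0 to 10 counts per library, were not tested.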
